A study of Homo sapiens with 24 samples.

Results

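The effect of adding fulvestrant to abemaciclib was read from 6 of the 24 RNA libraries of the study: 3 libraries of MDA-MB-453 cells given both drugs and 3 of the same line given abemaciclib alone. The full design crossed 2 established human breast cancer lines, MDA-MB-453 and MDA-MB-231, with 4 treatments (DMSO vehicle, fulvestrant, abemaciclib and both drugs), each with 3 libraries, in a study of what the retinoblastoma protein does on chromatin when CDK4/6 is inhibited. MDA-MB-453 is an epithelial line that lacks the oestrogen receptor. All 24 libraries came from wild-type cells harvested after 5 days; abemaciclib was given at 500 nM and fulvestrant at 5 nM. The comparison holds abemaciclib constant, so it asks what fulvestrant adds once CDK4/6 is already inhibited. It cannot show what abemaciclib itself does, and each line is a single cell line. Per the study's methods the 3 libraries of a group are independent biological replicates of an experiment that was carried out a single time, so p-values measure the spread within 1 experiment.

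Abemaciclib blocks the cyclin D-dependent kinases CDK4 and CDK6, which keeps the retinoblastoma protein hypophosphorylated and bound to E2F transcription factors, so that genes for DNA replication and mitosis stay off. Fulvestrant binds the oestrogen receptor and leads to its degradation, and it is given with CDK4/6 inhibitors in hormone receptor-positive disease. The results return to 2 kinds of transcript: long non-coding RNAs that stay in the nucleus, such as NEAT1, the scaffold of paraspeckles, and MALAT1, which collects in nuclear speckles, and messenger RNAs of the SR proteins and hnRNPs, which bind pre-messenger RNA and steer its splicing.

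The 6 libraries held 2873558 to 3952218 counts each in a 3′ end assay. All 11 epithelial and luminal markers checked had counts in these libraries, and 12 of 16 markers of the other line and of stromal or immune cells, VIM and CD44 among them, had none. The summed level of the 11 epithelial markers ran from 5245 to 5448 CPM (counts scaled by library size and TMM factors) with the combination and from 5675 to 6138 CPM with abemaciclib, and that of the 16 others from 259 to 294 and from 267 to 296 CPM. The abemaciclib libraries were uneven. Mitochondrial ribosomal RNA took 7.44% of the counts in replicate 1, 10.3% in replicate 2 and 10.9% in replicate 3, against 6.71% to 6.83% in the 3 combination libraries. Over all genes, replicate 1 differed from replicates 2 and 3 by a chi-square per degree of freedom of 7.67 and 8.18, whereas replicates 2 and 3 differed from each other by 3.76 and the combination libraries by 2.64 to 2.98. The part of these differences in the results was not tested beyond the fits that leave these libraries out or take the share as a covariate. In bulk RNA, fewer cells of one kind and less RNA per cell cannot be told apart.

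Adding fulvestrant to abemaciclib changed 273 of the 11080 genes tested in MDA-MB-453 (2.46% at an adjusted p below 0.05, edgeR quasi-likelihood test with Benjamini-Hochberg adjustment). Of these, 139 rose (1.25%) and 134 fell (1.21%), and the median over all genes tested was 0.00 on the log2 scale. The increases were the larger. Their median size was 0.94 log2 units, and 63 of the 139 were at least 2-fold. The decreases had a median size of 0.44, 6 were at least 2-fold, and 107 of the 134 were under 1.5-fold. They also lay at different levels, since the genes that rose had a median of 38.7 CPM and those that fell a median of 210.1 CPM. No library of one group overlapped the other group in 138 of the 139 increases and in 125 of the 134 decreases; over all genes tested the combination lay wholly above abemaciclib in 9.8% and wholly below it in 9.69%. The test selects for such separation, so nothing is read from these counts.

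**Figure D1:**
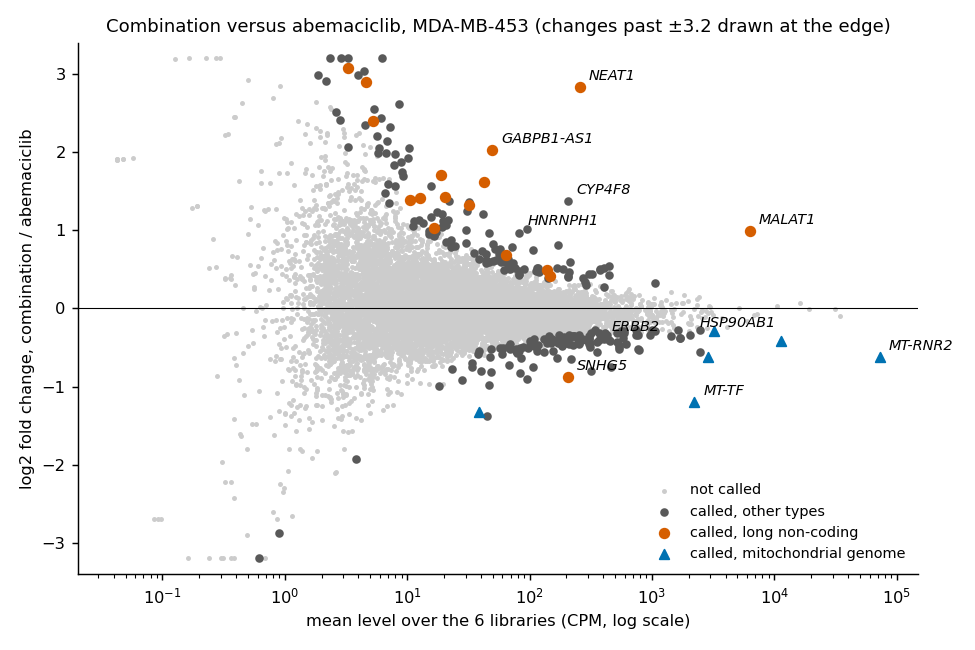
Each point is 1 of the 11080 genes tested. The horizontal axis is the mean level over the 6 MDA-MB-453 libraries on a log scale, and the vertical axis is the log2 fold change of the combination over abemaciclib. Called long non-coding genes (orange) lie above 0 with 1 exception, SNHG5, and called mitochondrial transcripts (blue triangles) lie below 0.

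Every library moved the count. It was 518, 106 and 138 without abemaciclib replicate 1, 2 or 3, and 131, 83 and 166 without combination replicate 1, 2 or 3. The abemaciclib libraries bore differently on the increases and the decreases. Replicate 1 was the lowest of the 3 abemaciclib libraries in 105 of the 134 genes that fell (78.4%) and in 32 of the 139 that rose (23.0%), against 33.1% of all genes tested. With replicates 2 and 3 both left out, 20 of the 139 increases and 0 of the 134 decreases were still called, although all 139 and all 134 kept their sign. The median change went from 0.94 to 0.86 for the increases and from -0.44 to -0.31 for the decreases. With the mitochondrial rRNA share of each library as a covariate, 46 of the increases and 21 of the decreases were called, 126 of the 134 decreases kept their sign, and the medians were 0.88 and -0.27. Both of these fits were chosen after the data were seen.

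Gene types differed in how their calls divided between increases and decreases. Types were paired with gene symbols from GENCODE, and clone-named genes (names such as AL022718.1) were kept as a class of their own. Of 319 long non-coding genes tested, 16 rose and 1 fell, or 5.02% and 0.313%, against the 1.25% and 1.21% of all genes. Their median change was 0.24 on the log2 scale, and 221 of the 319 (69.3%) lay above 0, against 50.3% of all genes. Of 10061 protein-coding genes, 112 rose and 114 fell (1.11% and 1.13%), with a median of 0.00. Of 215 pseudogenes, whose reads may be shared with their parent genes, 4 rose and 10 fell (1.86% and 4.65%), with a median of -0.15. Of the 14 mitochondrial rRNA and tRNA genes, none rose and 4 fell. Among the 419 clone-named genes 5 rose and 3 fell, and 1 of 16 small non-coding genes fell.

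**Figure D2:**
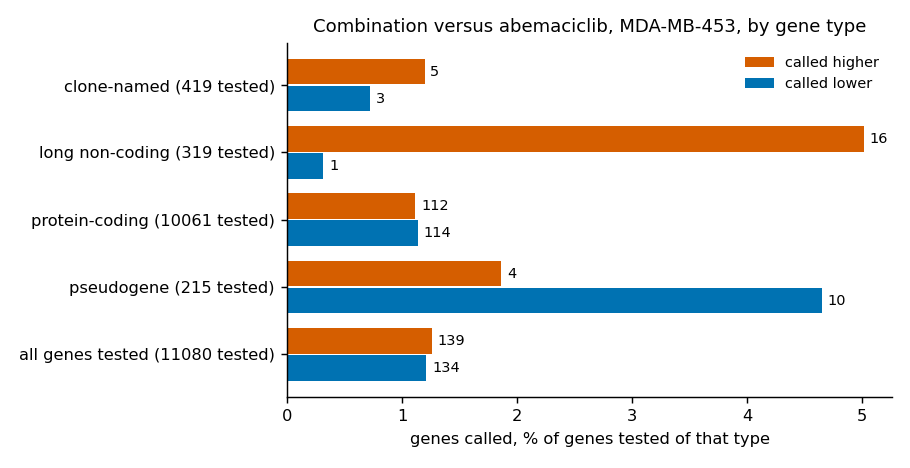
Bars give the share of tested genes of each type, with at least 100 genes tested, that were called higher (orange) or lower (blue) in the combination than in abemaciclib, and the number beside each bar is the count of genes. Long non-coding genes have the longest bar for increases, 16 genes, and pseudogenes the longest for decreases, 10 genes.

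NEAT1 (GRCh38 chr11:65422774-65445540, plus strand) had the smallest adjusted p of the comparison. It stood at 74.3, 52 and 64.3 CPM with abemaciclib and 334, 614 and 411 CPM with the combination. The lowest combination library was thus above every abemaciclib library, and the increase was 2.83 ± 0.15 log2 units (SE; adjusted p = 2.54e-18). In the DMSO libraries NEAT1 was at 32.9, 35.5 and 30.6 CPM and with fulvestrant alone at 50.4, 38.6 and 27.9 CPM. MALAT1 (chr11:65497640-65508073, plus strand), the neighbour of NEAT1 on chromosome 11, was at 3041, 4314 and 5304 CPM with abemaciclib and 7812, 9728 and 7549 CPM with the combination. All 3 combination libraries lay above all 3 abemaciclib libraries, and it rose by 0.99 ± 0.13 (adjusted p = 3.99e-06). NEAT1 and MALAT1 were listed together, as nuclear long non-coding RNAs, after their values were seen. Of the 14 members of that list tested, 6 rose and none fell, against 1.25% and 1.21% of all genes. Because of how the list was drawn up, its count describes the data and supports nothing.

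GABPB1-AS1 (chr15:50354944-50372202, plus strand), a transcript antisense to the gene of the GABP beta subunit, stood at 17.3, 13.5 and 28.1 CPM with abemaciclib and 82.4, 78.4 and 77 CPM with the combination. It rose by 2.03 ± 0.22 (adjusted p = 1.4e-08), with no overlap between groups. Its exons share bases with GABPB1 on the other strand, and the sources do not say whether reads were counted by strand. GABPB1 itself was not called (log2 change -0.13, adjusted p = 0.883).

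Small nucleolar RNA host genes, whose introns hold the guide RNAs of ribosomal RNA modification, had 21 members tested, of which 5 rose and 1 fell, against 1.25% and 1.21% of all genes, and the median was 0.42. The list was chosen with earlier results of these data known. SNHG1 (chr11:62851978-62855953, minus strand) was at 8.25, 13.5 and 4.57 CPM with abemaciclib and 22.9, 39.2 and 24.8 CPM with the combination, an increase of 1.71 ± 0.29 (adjusted p = 0.000187) with no overlap. SNHG12 (1.39) and SNHG3 (0.68) also rose, as did SNHG15 (1.03) and GAS5 (0.42), a growth arrest-associated host gene, both named with their values known. The SNHG12 call was lost in 7 of 14 alternative settings and the SNHG3 call in 4. SNHG5 (chr6:85650491-85678932, minus strand) was the one that fell, at 193, 344 and 268 CPM with abemaciclib and 156, 134 and 147 CPM with the combination (-0.88 ± 0.14 log2 units, adjusted p = 0.000142). Its abemaciclib libraries had replicate 1 lowest, as with the mitochondrial transcripts described further on, and the call was lost with the rRNA covariate and without replicates 2 and 3 (adjusted p up to 0.578).

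Other long non-coding genes also rose and are named after their values were seen. MIRLET7A1HG (3.07), MIR34AHG (2.90) and MIR29B2CHG (1.42), the hosts of let-7, miR-34a and miR-29 hairpins, averaged 3.31, 4.65 and 12.7 CPM over the 6 libraries. MUC20-OT1 (1.43) and LINC01578 (1.33) rose as well, although LINC01578 shares exon bases with CHD2 on the same strand and reads of both could be split between them. CRNDE, at 115, 120 and 108 CPM with abemaciclib, rose by 0.50.

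The share of each library taken by long non-coding genes was 1.24% ± 0.0591 (SD, n = 3) with abemaciclib and 1.87% ± 0.147 with the combination. The groups did not overlap, and the exact two-sided permutation p was 0.1, the smallest that 3 against 3 allows. NEAT1 and MALAT1 accounted for 0.402% ± 0.0943 and 0.886% ± 0.133. Without them the share was 0.842% ± 0.0352 and 0.983% ± 0.0245, again without overlap (exact p = 0.1). In DMSO libraries the whole long non-coding share was 0.990% ± 0.0148 and with fulvestrant alone 1.07% ± 0.0535.

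Promoter windows were searched for the sites of factors tied to these drugs or to this line. The windows, 250 bases before to 50 bases after an annotated RefSeq start (build GRCh38.p14), matched 108 of the 139 genes that rose, 87 of the 134 that fell and 8506 of the 11080 tested; NEAT1 was not matched. The motifs were the oestrogen response element (GGTCA and TGACC with 3 bases between) and its half-site AGGTCA, the E2F sites TTTGGCGC and TTTCCCGC, the CRE TGACGTCA and the FOXA site TGTTTAC, on both strands; the half-site may lie within the full element. No window of a called gene held the full oestrogen response element, which 2 of the 8506 windows held (0.0235%). The half-site was in 12.0% of the windows of genes that rose, 12.6% of those that fell and 13.2% of all. TTTGGCGC was in 0 of 108, 3 of 87 (3.45%) and 1.45% of all, and TTTCCCGC in 1.85%, 4.60% and 3.55%. The CRE was in 3.70%, 3.45% and 4.13% and the FOXA site in 4.63%, 3.45% and 3.37%. The 3 windows shown are those of called genes that kept their call under every setting tried: 2 long non-coding genes and the protein-coding gene with the smallest adjusted p. Capitals mark a half-site, read here on the reverse strand, and no other motif of the 6 was found in them.
GABPB1-AS1 (chr15:50353924-50354223, plus strand): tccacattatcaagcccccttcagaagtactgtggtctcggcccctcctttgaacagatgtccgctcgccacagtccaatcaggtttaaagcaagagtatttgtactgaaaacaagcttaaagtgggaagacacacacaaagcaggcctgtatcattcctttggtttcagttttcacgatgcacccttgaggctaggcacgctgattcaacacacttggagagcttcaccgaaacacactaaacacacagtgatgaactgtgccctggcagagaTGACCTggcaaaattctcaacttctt
SNHG1 (chr11:62855836-62856135, minus strand): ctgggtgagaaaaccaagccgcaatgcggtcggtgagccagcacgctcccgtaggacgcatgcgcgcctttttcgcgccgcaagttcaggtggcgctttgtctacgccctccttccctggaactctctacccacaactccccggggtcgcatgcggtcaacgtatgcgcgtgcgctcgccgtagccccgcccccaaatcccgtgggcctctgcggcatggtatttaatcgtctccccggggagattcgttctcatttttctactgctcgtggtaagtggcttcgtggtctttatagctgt
CYP4F8 (chr19:15614968-15615267, plus strand): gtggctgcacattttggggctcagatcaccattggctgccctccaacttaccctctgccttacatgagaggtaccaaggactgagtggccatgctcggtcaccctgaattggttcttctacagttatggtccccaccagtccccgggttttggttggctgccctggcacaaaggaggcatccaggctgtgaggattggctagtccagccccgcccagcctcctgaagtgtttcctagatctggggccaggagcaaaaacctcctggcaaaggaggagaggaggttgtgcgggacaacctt

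Of 32 SR protein and hnRNP genes tested, which act in splicing, 5 rose and none fell, against 1.25% and 1.21% of all genes, with a median of 0.08. This list too was chosen with earlier results of these data known. HNRNPH1 (chr5:179614178-179634784, minus strand), a regulator of exon choice through G-rich sequence, was at 58, 46.7 and 60.7 CPM with abemaciclib and 99.8, 118 and 105 CPM with the combination. It rose by 0.97 ± 0.12 (adjusted p = 4.66e-07), with no overlap between groups. Its DMSO libraries were at 217, 226 and 197 CPM, so the combination lay between abemaciclib and DMSO. HNRNPDL (chr4:82422565-82430462, minus strand), a paralogue of the AU-rich element binding protein AUF1, was at 125, 132 and 113 CPM with abemaciclib and 217, 235 and 198 CPM with the combination. It rose by 0.81 ± 0.10 (adjusted p = 4.66e-07), and its combination libraries overlapped the DMSO libraries (211, 188 and 209 CPM). SRSF5 (chr14:69726900-69772005, plus strand), an SR protein, was at 162, 153 and 199 CPM with abemaciclib and 281, 256 and 239.8 CPM with the combination and rose by 0.59 ± 0.10 (adjusted p = 0.000364). SRSF5 was at 129, 157 and 127 CPM with DMSO, below every combination library.

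A wider list of 80 nuclear speckle and splicing regulators was written after the values were seen, so its count describes the data and supports nothing. Of its 78 members tested, 18 rose and none fell, against 1.25% and 1.21% of all genes, with a median of 0.25. CCNL2, a speckle cyclin, was at 26.8, 22.9 and 25.5 CPM with abemaciclib and 49.4, 67.7 and 56.2 CPM with the combination (1.20 ± 0.18, adjusted p = 5.1e-05). RBM6, a splicing regulator deleted in some tumours, was at 20.1, 18.8 and 16 CPM with abemaciclib and 38.6, 50.5 and 41.8 CPM with the combination (1.25 ± 0.20, adjusted p = 0.000147). PNISR (1.01), RSRP1 (1.12), RBM4 (0.94), FNBP4 (0.83), NKTR (0.79) and SUGP2 (0.73) followed, and the RNA helicases DDX5 (0.51) and DDX17 (0.51), the exon junction component RNPS1 (0.62), LUC7L3 (0.44), SRRM2 (0.43), TRA2A (0.54) and TRA2B (0.43) rose by less. The cold-inducible pair RBM3 (0.54) and CIRBP (0.40) was also higher. With the mitochondrial rRNA covariate 9 of the 18 were still called, and without abemaciclib replicates 2 and 3 so were 7.

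Transcript annotation was compared between the called protein-coding genes and all those tested. A transcript marked as retaining an intron was annotated for 81 of the 112 genes that rose (72.3%), 75 of the 114 that fell (65.8%) and 63.0% of the 10061 tested. A transcript marked for nonsense-mediated decay was annotated for 71 (63.4%), 55 (48.2%) and 49.8%. Among genes averaging above 47.6 CPM, which held 54 of the 112 and 103 of the 114, a retained intron was annotated for 68.5%, 67.0% and 66.8%, and decay for 63.0%, 48.5% and 50.7%. Between 13.7 and 47.6 CPM, with 31 and 8 of these genes, the retained intron shares were 83.9%, 50% and 63.0%. Those for decay were 74.2%, 37.5% and 49.9%. Below 13.7 CPM, with 27 and 3 genes, the shares were 66.7%, 66.7% and 59.1% for a retained intron. For decay they were 51.9%, 66.7% and 48.8%. Reads from 3′ ends do not tell these transcripts apart from the coding ones.

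**Figure D3:**
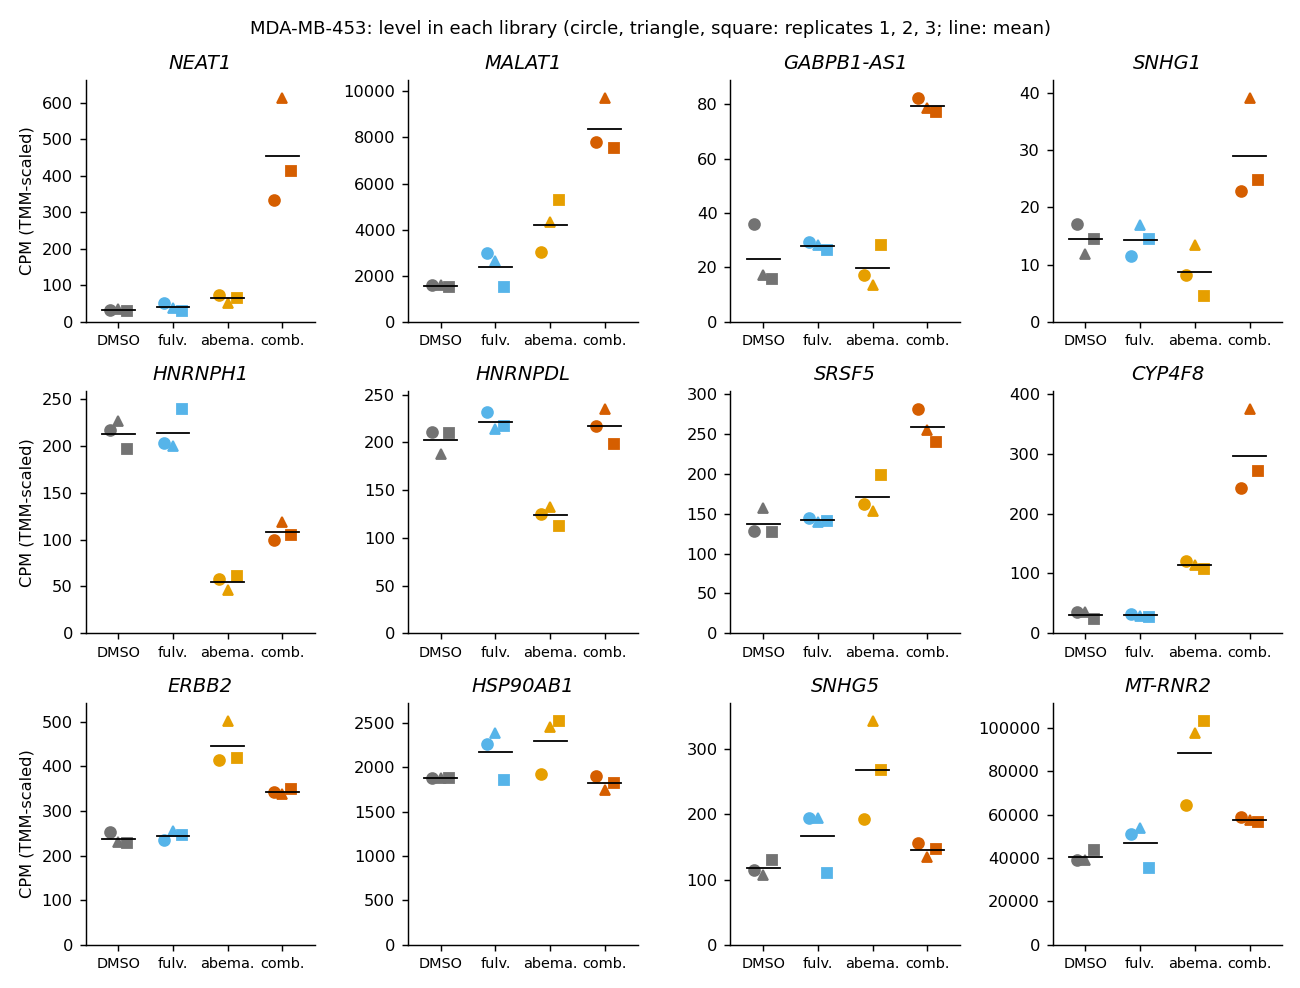
Each panel gives 1 gene in the 12 MDA-MB-453 libraries, in CPM on a linear axis from 0; symbols mark replicates 1 to 3 and lines the group means. The combination lies above abemaciclib without overlap in the first 8 panels and below it in the last 4, where abemaciclib replicate 1 (circle) is the abemaciclib library nearest to the combination.

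CYP4F8 (chr19:15615218-15630639, plus strand), a fatty acid and prostaglandin hydroxylase, had the smallest adjusted p of the protein-coding genes. It was at 120.5, 114 and 107 CPM with abemaciclib and 242, 374 and 271 CPM with the combination, an increase of 1.38 ± 0.13 (adjusted p = 1.54e-10), against 34.9, 34.7 and 23.5 CPM with DMSO. Of the 29 apocrine and hormone response genes tested it was the only one called in either direction, and the median of that list was -0.04. Over all genes tested 2.46% were called, so nothing is read from that count. The other large increases among protein-coding genes averaging at least 10 CPM were LPIN3 (2.05), a phosphatidate phosphatase, HOXC8 (1.92), a homeobox factor, ZNF692 (1.56), STK36 (1.37), a kinase of the hedgehog pathway, ZC3H12A (1.36), which cleaves inflammatory transcripts, TAF1C (1.24), a subunit of the RNA polymerase I factor SL1, WSB1 (1.20), ZNF75D (1.17) and SUPT20H (1.13), a subunit of the SAGA complex. ZC3H12A, for example, was at 25.3, 15.9 and 11.8 CPM with abemaciclib and 50.4, 42.7 and 44.8 CPM with the combination.

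Stress-response genes were among both the increases and the decreases. ATF4, the transcription factor of the integrated stress response, was at 329.6, 298 and 314 CPM with abemaciclib and 423, 450.3 and 458 CPM with the combination, an increase of 0.50 ± 0.09 (adjusted p = 0.000263). DDIT4, an inhibitor of mTORC1, was at 279, 278 and 271 CPM with abemaciclib and 407, 375 and 338 CPM with the combination (0.44 ± 0.09, adjusted p = 0.00294). Their list of 36 tested genes had 2 increases and 2 decreases, EPRS1 (-0.47), a tRNA synthetase, and GDF15 (-0.45), a secreted stress cytokine, and a median of -0.04. Over all genes tested 1.25% rose and 1.21% fell, and nothing is read from the small list counts in this paragraph. GADD45B (1.01) was 1 of 29 p53 targets to rise and KLF6 (0.52) 1 of 32 immediate early genes. SREBF1 (0.44) rose with an adjusted p of 0.049, next to the threshold. Of 35 histone genes tested 2 rose and 1 fell, with a median of 0.10. The variant H3-3B (0.32) was among those that rose, and the replication-dependent H4C3 fell (-0.72; 68.1, 103 and 83 CPM with abemaciclib and 43.1, 49.3 and 60.0 CPM with the combination), a call lost with the rRNA covariate (-0.35) and without abemaciclib replicates 2 and 3 (-0.43, adjusted p = 0.356).

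The decreases were led in abundance by the mitochondrial genome. Of 27 of its transcripts tested, 6 fell and none rose, against 1.21% and 1.25% of all genes, and the median was -0.15. MT-RNR2, the 16S rRNA, fell by 0.62 ± 0.10 (adjusted p = 0.000126), MT-RNR1, the 12S rRNA, fell by 0.42, and the neighbouring tRNAs MT-TF and MT-TV fell by 1.20 and 1.32. The other 2, named after their values were seen, were MT-ND4L and MT-ATP8 (log2 changes -0.29 and -0.62), which encode subunits of complex I and ATP synthase. MT-TF was at 1687, 4175 and 3397 CPM with abemaciclib and 1245, 1279 and 1503 CPM with the combination. Replicate 1 lay close to the combination, and replicates 2 and 3 stood well above it. Pseudogenes with mitochondrial sequence moved with them, MTND2P28 with a log2 change of -1.37 and MTND1P23 with -0.99, and reads of such copies and of the mitochondrial genes cannot be told apart with certainty. The share of counts from the mitochondrial genome other than rRNA was 14.3% ± 0.406 with abemaciclib and 14.4% ± 0.364 with the combination (exact p = 0.7). The 4 rRNA and tRNA calls were lost with the rRNA covariate, which is built from 2 of these genes, and without abemaciclib replicates 2 and 3.

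The same limit touched the nuclear genes. Of the 44 decreases chosen by the naming rule, mitochondrial ones included, none was called without abemaciclib replicates 2 and 3, a fit with fewer libraries, and 5 were called with the rRNA covariate, namely AL022718.1, BIRC5, CDC45, GPI and PKM. HSP90AB1, for instance, went from -0.34 to -0.02 with the covariate and to -0.10 without the 2 libraries, PDIA3 from -0.45 to -0.04 and -0.16, EPRS1 from -0.47 to -0.13 and -0.18, EIF5B from -0.47 to -0.14 and -0.22, and TRPS1 from -0.35 to -0.09 and -0.18. DDX10 went from -0.92 to -0.55 and -0.44, and TMEM97 from -0.64 to -0.23 and -0.26. PKM, by contrast, was at -0.29, -0.44 and -0.37, and GPI at -0.32, -0.38 and -0.33.

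Among nuclear protein-coding genes averaging at least 10 CPM and with no overlap between groups, the decreases were headed by DDX10 (-0.92), an RNA helicase of ribosome assembly, GOPC (-0.80), a Golgi trafficking protein, HYAL2 (-0.77), CDK11B (-0.75), a kinase of transcription and splicing, H4C3 and NDUFA13 (-0.70), a complex I subunit. TMEM97 (-0.64), the sigma-2 receptor, METRN (-0.63), PCM1 (-0.62), NKAP (-0.58) and the acetyltransferase CREBBP (-0.57) completed the group. Of 37 folding and heat shock genes 3 were lower and 1 higher, against 1.21% and 1.25% of all genes: PDIA3 (-0.45), HSF1 (-0.55) and HSP90AB1 (-0.34) fell and DNAJB1 (0.39) rose. EIF5B, a translation initiation factor and the one decrease among 62 translation factors tested, was at 518, 651 and 703 CPM with abemaciclib and 449.9, 457 and 446 CPM with the combination (-0.47 ± 0.09, adjusted p = 0.00148). The ribosomal proteins RPL38 (-0.28) and RPL39 (-0.43), 2 of 81 tested, fell, while RPL22L1 rose (0.51). With 1 to 4 calls in each of these 3 lists, nothing is read from their counts. Of 30 glycolysis and hypoxia genes 3 fell, GPI (-0.32), PKM (-0.29) and EGLN3 (-0.51).

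ERBB2 (HER2; chr17:39687914-39730426, plus strand), the receptor tyrosine kinase this line expresses, was at 415, 502 and 419 CPM with abemaciclib and 342, 338 and 350.2 CPM with the combination. The groups did not overlap, and ERBB2 fell by 0.38 ± 0.09 (adjusted p = 0.00916). Its DMSO libraries averaged 237 CPM, below both. The call was lost without abemaciclib replicate 2 and in 4 other settings, with adjusted p up to 0.390. ERBB3 (0.06 ± 0.09) was not called, and the 9 ERBB receptor and ligand genes tested had 1 decrease and a median of 0.06. Of 22 luminal transcription factor and steroid receptor genes, TRPS1 fell (-0.35), none rose, and the median was -0.17. Over all genes tested 1.21% fell and 1.25% rose, and nothing is read from 1 call in lists of 22 and 9 genes. The TRPS1 call was lost in 7 of 14 alternative settings. GATA3 (923, 1141 and 1013 CPM with abemaciclib and 869, 834 and 844 CPM with the combination) had an adjusted p of 0.0566 for a change of -0.27 ± 0.08. It was called in 6 of 14 alternative settings, and its change ran from -0.34 to -0.07 across them. FOXA1 (-0.02 ± 0.10) was not called.

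The target of fulvestrant was hardly present. ESR1, the gene of oestrogen receptor alpha, had 0 counts in all 3 combination libraries and in 2 of the 3 abemaciclib libraries, with 8 counts in abemaciclib replicate 2. ESR2 and PGR, the progesterone receptor gene, had 0 counts in all 6 libraries, and a count of 0 over the combination group allows a level of up to 0.291 CPM. GPER1, the membrane oestrogen receptor, and the target GREB1 had at most 5 and 4 counts in any of the 6. Of 122 oestrogen response genes tested none rose and 1 fell, IGFBP5 (-0.28 ± 0.08, adjusted p = 0.0476), with a median of -0.03. Over all genes tested 1.25% rose and 1.21% fell, so a list of this size holds few calls and nothing is read from its count. The IGFBP5 call was lost in 8 of 14 alternative settings, a replicate block among them. CCND1, the cyclin D1 gene, was at 808, 844 and 767 CPM with abemaciclib and 669, 698 and 703 CPM with the combination; it did not overlap between groups, but its change of -0.22 ± 0.08 had an adjusted p of 0.108.

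Of 156 E2F targets and cell cycle genes tested, none rose and 3 fell, with a median of -0.01. Of these, 91 averaged under 10 CPM over the 6 libraries compared, since a gene could pass the filter through its DMSO or fulvestrant libraries, so these counts do not show that the list was unchanged. Of the 65 at 10 CPM or more, none rose and 1 fell, against 1.25% and 1.21% of all genes, with a median of -0.03. That one was USP1, a deubiquitinase of DNA repair, at 50.8, 62.2 and 56.8 CPM with abemaciclib and 42.1, 36.6 and 39.8 CPM with the combination (-0.52 ± 0.14, adjusted p = 0.0351). The USP1 call was lost in 8 of 14 alternative settings, and nothing is read from a count this small. The other 2 were near 0 in both groups: CDC45, a replication helicase component, had 12 counts over the abemaciclib libraries and 0 over the combination libraries, at least 3.98-fold lower when 0 is set to 3 counts over the group, and BIRC5, the mitotic survivin gene, had 17 and 2 counts, 8.46-fold lower (95% exact interval 2.01 to 75.5, counting error only). MKI67 was at 2.32, 0.881 and 1.96 CPM with abemaciclib and 0.695, 2.88 and 1.27 CPM with the combination, against 292, 256 and 281 CPM with DMSO. TK1 was at 9.03, 5.58 and 4.9 and 7.65, 4.04 and 6.84 CPM. E2F1 (-0.15 ± 0.20), RB1 (0.05 ± 0.16), CDK4 (-0.06 ± 0.10) and CDKN1A (0.40 ± 0.30) were not called, and none of the 30 G1 cyclin, kinase, inhibitor and pocket protein genes was. The secretory and keratin genes of the line, PIP (0.00 ± 0.09), SCGB2A2 (0.00 ± 0.18), MUCL1 (0.11 ± 0.14), KRT8 (-0.15 ± 0.09), KRT18 (-0.00 ± 0.08) and KRT19 (-0.19 ± 0.07), were not called either.

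**Figure D4:**
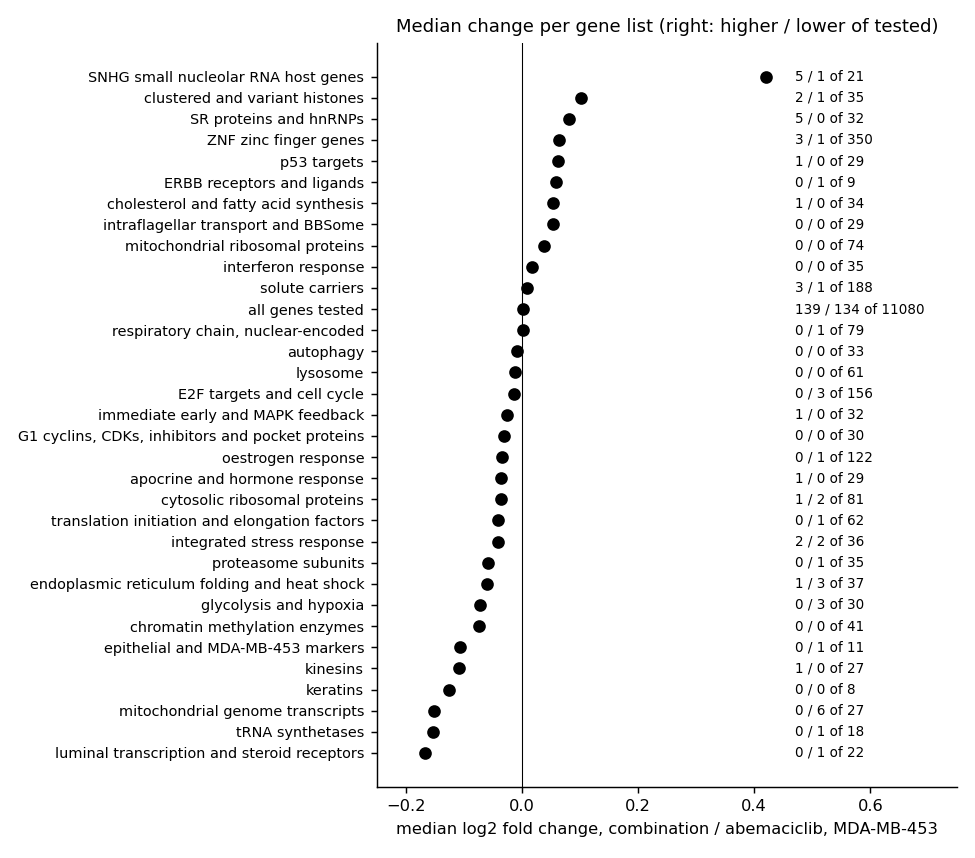
Points give the median log2 fold change, combination over abemaciclib, of the tested members of each gene list with at least 8 tested. Numbers at the right are members called higher and lower of those tested. Lists drawn up after the values of this comparison were seen are not plotted. Those plotted were chosen with earlier results of these data known. Of the lists plotted, the small nucleolar RNA host genes have the highest median (0.42) and the luminal factors and steroid receptors the lowest (-0.17), with all genes tested at 0.00.

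No call in either direction fell on 6 other lists: lysosome (61 genes tested, median -0.01), autophagy (33, -0.01), interferon response (35, 0.02), chromatin methylation enzymes (41, -0.07), intraflagellar transport and BBSome (29, 0.05) and mitochondrial ribosomal proteins (74, 0.04). At 2.46% of all genes called in either direction, lists of this size hold few calls, and nothing is read from their absence. Of 350 ZNF zinc finger genes 3 rose and 1 fell, with a median of 0.06, and of 188 solute carriers 3 rose and 1 fell. Over all genes 1.25% rose and 1.21% fell, and nothing is read from these counts.

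The same drug added to DMSO, a comparison that shares no library with this one, called 156 of 11080 genes (1.41%), 112 higher and 44 lower. That count ran from 5 without fulvestrant replicate 2 to 786 without fulvestrant replicate 3. Of the 139 genes that rose with the combination, 2 also rose with fulvestrant alone and none fell. Of the 134 that fell, 2 also fell and 15 rose. MALAT1 rose in both (0.60 ± 0.13, adjusted p = 0.011, with fulvestrant alone), although its level there was 2980.0, 2618 and 1522 CPM, against 1597, 1598 and 1505 CPM with DMSO, and replicate 3 lay at the DMSO level. NEAT1 (0.25 ± 0.18), SNHG1 (-0.01 ± 0.28), HNRNPH1 (0.00 ± 0.10) and CYP4F8 (-0.06 ± 0.16) were not called with fulvestrant alone.

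The difference between these 2 effects was tested directly, as the fulvestrant effect with abemaciclib minus that without. It was called for 62 of the 139 increases (44.6%) and 84 of the 134 decreases (62.7%), against 3.8% of all genes tested (1.13% with a difference above 0 and 2.67% below 0). NEAT1 differed by 2.58 (adjusted p = 6.45e-10), GABPB1-AS1 by 1.73 (0.000452), HNRNPH1 by 0.97 (0.000146) and CYP4F8 by 1.44 (1.63e-05). MALAT1 was not called (0.39, adjusted p = 0.294). Because this contrast contains the combination and abemaciclib libraries, these shares are not independent of the first comparison. Fulvestrant replicates 1 and 2, like abemaciclib replicates 2 and 3, had a higher mitochondrial rRNA share (6.30% and 6.63%, against 4.44% in replicate 3), and with that share as a covariate 7 genes in all were called for the difference in place of 421. Without single libraries that number lay between 191 (fulvestrant replicate 2) and 873 (fulvestrant replicate 3).

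In MDA-MB-231, a mesenchymal-like line without the oestrogen receptor, the combination against abemaciclib called 3 of 11314 genes (0.0265%; 1148 at an unadjusted p below 0.05): CHD1 rose (0.00884%), and CCN2 and RRM2 fell (0.0177%). Without abemaciclib replicate 1 none was called there, without abemaciclib replicate 3 the count was 96, and without combination replicate 2 it was 1. None of the 273 genes called in MDA-MB-453 was called there. Of the 118 increases tested in MDA-MB-231, 64 had the same sign (54.2%), and of the 132 decreases 46 (34.8%). For comparison, 4626 of all 9691 genes tested in both lines had a change above 0 in MDA-MB-231. NEAT1 changed by 0.21 ± 0.20 and HNRNPH1 by -0.31 ± 0.10 in that line, neither past the test. In the fit of all 24 libraries, the difference between the lines was called for 133 of 12750 genes (1.04%; 37 without MDA-MB-231 abemaciclib replicate 1 and 320 without MDA-MB-453 abemaciclib replicate 1), among them 32 of 138 increases (23.2%) and 50 of 134 decreases (37.3%). This contrast contains the 6 libraries by which these genes were called, so the shares are not independent of that choice. It was 2.61 for NEAT1 (adjusted p = 6.69e-08), 1.84 for GABPB1-AS1 (0.00162), 1.26 for HNRNPH1 (3.41e-06) and 0.90 for HNRNPDL (6.98e-05).

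**Figure D5:**
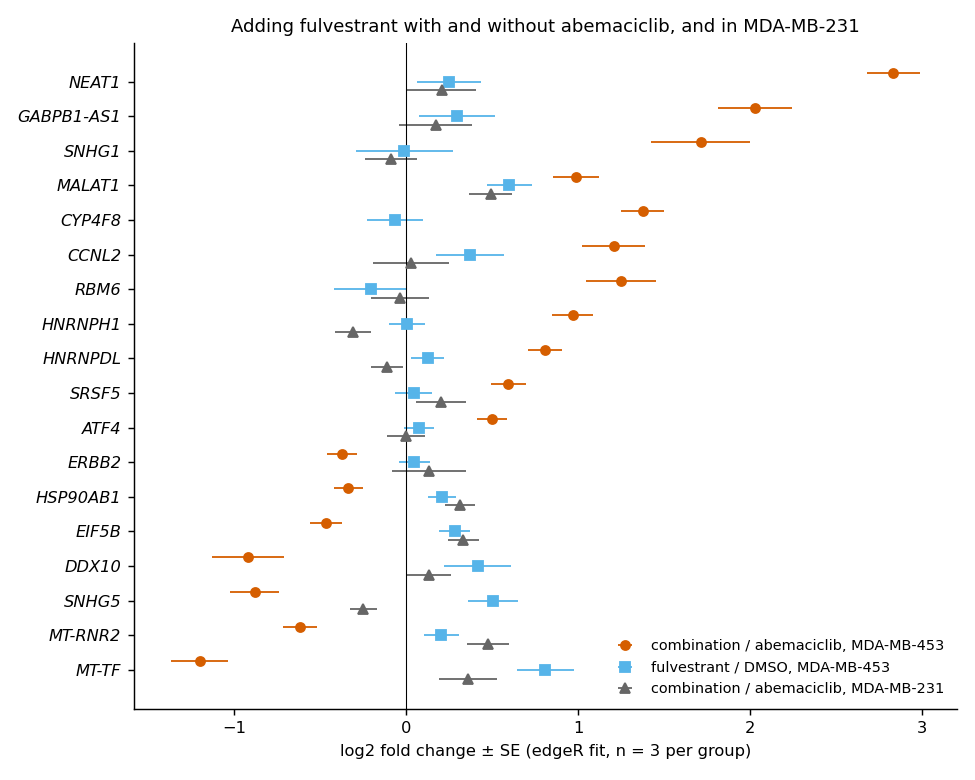
Points give the log2 fold change ± SE of each gene for the combination over abemaciclib in MDA-MB-453 (orange circles), fulvestrant over DMSO in MDA-MB-453 (blue squares) and the combination over abemaciclib in MDA-MB-231 (grey triangles; CYP4F8 was not tested there). NEAT1 lies at 2.83, 0.25 and 0.21, and ERBB2 at -0.38, 0.05 and 0.13.

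Across 14 alternative settings, 7 of the 79 called genes chosen by the naming rule kept their call in every one: NEAT1 (2.55 to 3.01 on the log2 scale), GABPB1-AS1 (1.82 to 2.35), SNHG1 (1.42 to 2.14), CYP4F8 (1.17 to 1.5), HNRNPH1 (0.79 to 1.04), HNRNPDL (0.75 to 0.87) and SRSF5 (0.52 to 0.71). All 7 rose. In the planned settings alone, 27 of the 79 kept it.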

How the data were processed

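RNA from MDA-MB-453 and MDA-MB-231 cells was measured by QuantSeq 3′ end sequencing with single-end reads of 100 bp. BBDuk trimming, STAR alignment to hg38 and featureCounts with the GENCODE 35 annotation were run by the authors, who deposited the raw gene counts, which are not normalised, for 59609 named genes, beside 1 row without a gene name that held 0 counts. Strand, multiply aligned reads and duplicate reads are not described in the sources used here. The exact interval printed for BIRC5 covers counting error only, whereas each SE comes from the edgeR fit and takes in the spread between libraries. Totals of all libraries ran from 2873558 to 4158762.

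Counts were filtered with filterByExpr, scaled by TMM and fitted with edgeR 4.0.16 (quasi-likelihood test, R 4.3.3) on the 12 MDA-MB-453 libraries, with the contrasts combination minus abemaciclib, fulvestrant minus DMSO and their difference. MDA-MB-231 was fitted separately, and the difference between lines in all 24 libraries. Genes with a 2-sided p below 0.05 after Benjamini-Hochberg adjustment across the whole tested set were called. Replicate pairs differed by more than sampling noise (chi-square per degree of freedom 2.64 to 8.65), so none was a copy. On simulated counts for 10450 genes, the combination contrast recovered 89 of 100 genes changed by 1 log2 unit and 41 of 100 changed by 0.5. It made 6 false calls among 136. These rates describe the simulated counts only. Whether they carry over to genes under 10 CPM, or to the real libraries with their uneven abemaciclib replicates, was not tested.

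The members and the gene lists were chosen with earlier results of these data known. Named genes were called genes of at least 10 CPM with groups that did not overlap, namely the 12 protein-coding genes with the largest change in each direction and the 4 of every other gene type, together with a fixed set of drug target, cell cycle and lineage genes, up to 3 called genes per list and direction by smallest p, and the 3 leading called genes per direction of the dependence and line contrasts; some genes so chosen are not reported here. Gene types, positions and overlaps came from a later GENCODE release on GRCh38, matched by symbol. Alternatives were RLE size factors, no filter, DESeq2 1.42.0, a replicate block, a fold minimum, only the groups compared, no mitochondrial transcripts, and each library left out.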

Additional observations from a re-analysis of the deposited data

Results flagged for a closer look

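Of the 99 named genes that could be compared, 57 had a fulvestrant effect that differed between cells with and without abemaciclib (the effect with abemaciclib minus the effect without, edgeR quasi-likelihood test with Benjamini-Hochberg adjustment). This contrast contains the libraries of the first comparison, and some genes were named as leaders of the contrast itself, so the count is not independent of the choice of genes; among all 11080 genes tested 421 were called (3.8%). On the log2 scale the difference was above 0 for LPIN3 (2.89), NEAT1 (2.58), HOXC8 (2.18), SNHG12 (1.82), GABPB1-AS1 (1.73), SNHG1 (1.72), STK36 (1.47), RBM6 (1.45), ZNF692 (1.44), CYP4F8 (1.44), KIFC2 (1.16), SLC25A37 (1.11), HNRNPH1 (0.97), SMPD4BP (0.96), SLC25A29 (0.95), SNHG3 (0.86), RPL22L1 (0.80), ZNF207 (0.76), DDIT4 (0.70), HNRNPDL (0.68), GRB7 (0.68), SRSF5 (0.55), DNAJB1 (0.49), ATF4 (0.43) and H3-3B (0.40). It was below 0 for MTND2P28 (-2.12), MT-TV (-2.09), MT-TF (-2.01), RNU4ATAC (-1.99), MTND1P23 (-1.81), PTMAP10 (-1.61), FRG1BP (-1.58), AC099789.1 (-1.47), SNHG5 (-1.39), DDX10 (-1.34), CDK11B (-1.33), H4C3 (-1.26), TMEM97 (-1.05), GOPC (-0.98), METRN (-0.97), USP1 (-0.97), NKAP (-0.85), PCM1 (-0.83), MT-RNR2 (-0.82), EIF5B (-0.75), EPRS1 (-0.74), PDIA3 (-0.73), CREBBP (-0.68), KDM5A (-0.67), ZNF652 (-0.61), HSP90AB1 (-0.54), TRPS1 (-0.50), GATA3 (-0.46), SLC9A3R2 (-0.43), MT-RNR1 (-0.42), ERBB2 (-0.42) and IGFBP5 (-0.41). With the mitochondrial rRNA share of each library as a covariate, a fit chosen after the data were seen, 7 genes of all those tested were called for this difference, against 421 without it.

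For 29 of the 99 named genes the effect of adding fulvestrant to abemaciclib differed between MDA-MB-453 and MDA-MB-231 in the fit of all 24 libraries, against 133 of all 12750 genes tested (1.04%); the same limit on the choice of genes applies. The difference, MDA-MB-453 minus MDA-MB-231 on the log2 scale, was above 0 for SRCIN1 (4.22), NANOS1 (3.92), GRB7 (3.11), NEAT1 (2.61), GABPB1-AS1 (1.84), SNHG1 (1.78), GADD45B (1.43), SUPT20H (1.36), WSB1 (1.32), RBM6 (1.26), HNRNPH1 (1.26), CCNL2 (1.16), HNRNPDL (0.90), SNHG3 (0.82) and RPL22L1 (0.70), and below 0 for MTRNR2L8 (-2.09), RNU4ATAC (-1.91), MTND2P28 (-1.76), MT-TV (-1.58), MT-TF (-1.57), MTND1P23 (-1.34), MT-RNR2 (-1.11), DDX10 (-1.07), GOPC (-0.88), TMEM97 (-0.86), EIF5B (-0.82), EPRS1 (-0.78), HSP90AB1 (-0.67) and MT-RNR1 (-0.66). SRCIN1, NANOS1, GRB7 and MTRNR2L8 were not called within MDA-MB-453. In the MDA-MB-231 combination libraries GRB7 had 0 to 3 counts, NANOS1 0 to 1 and SRCIN1 0 to 2, so the size of these 3 differences rests on very few reads.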

How the results depend on the processing

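Genes called for the combination against abemaciclib in MDA-MB-453 numbered 273 in the reported fit and 276 with RLE size factors, 294 with DESeq2 and 274 without mitochondrial transcripts. At a fold of at least 1.5 they numbered 129, of which 27 were lower. With no filter on low counts 213 were lower. Leaving out each library in turn gave 83 to 518 calls, 46 to 205 higher and 37 to 313 lower, with 10 to 19 long non-coding genes in place of 17. Alternatives chosen after the data were seen took more away. With the mitochondrial rRNA share as a covariate 131 genes were called, 76 higher, 55 lower and 10 long non-coding. Without abemaciclib replicates 2 and 3, where the lone abemaciclib library is assumed to vary like the other groups, 24 were called, 21 higher, 3 lower and 6 long non-coding. For fulvestrant against DMSO the count of 156 became 269 with no filter, 45 at 1.5-fold, 259 with DESeq2, 60 with the covariate and 5 to 786 without single libraries. For the dependence on abemaciclib the count of 421 became 7 with the covariate and 191 to 873 without single libraries. In MDA-MB-231 the count of 3 became 5 with RLE size factors, 49 with no filter, 9 without mitochondrial transcripts, 28 with DESeq2, 30 with only the groups compared and 0 to 96 without single libraries. For the difference between lines the count of 133 became 230 with no filter, 219 with DESeq2 and 37 to 320 without single libraries. The rise of 0.625 percentage points in the long non-coding share became 0.142 without NEAT1 and MALAT1, an alternative chosen after the data were seen, and 0.541 to 0.674 without single libraries. The cause of these shifts was not tested.

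Replicate numbers did not pair the samples: the correlation of same-numbered deviations in the combination and abemaciclib groups was 0.01, -0.02 and -0.03. With a replicate block 242 genes were called in MDA-MB-453, and 88 for the difference between lines.

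The sign of small changes depended on the setting, and of the genes listed next only MTND1P23 and RNU4ATAC were called in the reported fit. PIP, reported at 0.0011, was -0.00564 with RLE size factors, -0.0215 with no filter, -9.76e-05 with no mitochondrial transcripts, -0.00567 with DESeq2, -0.0754 with the covariate and -0.0228 with abemaciclib replicates 2 and 3 left out and ran from -0.0664 to 0.0684 without single libraries. SCGB2A2, reported at 0.000862, was -0.00621 with RLE size factors, -0.0222 with no filter, -0.000595 with no mitochondrial transcripts, -0.00636 with DESeq2 and -0.13 with abemaciclib replicates 2 and 3 left out and ran from -0.12 to 0.0688 without single libraries. KRT18, reported at -0.000446, was 0.00251 with only the groups compared and ran from -0.0421 to 0.0287 without single libraries. RB1, reported at 0.0466, was -0.16 with the covariate and -0.0365 with abemaciclib replicates 2 and 3 left out and ran from -0.0448 to 0.16 without single libraries. FOXA1, reported at -0.0198, ran from -0.0921 to 0.0418 without single libraries. With the covariate AZGP1 turned to -0.15, KDM5A to 0.21, MTND1P23 to 0.0888, MTRNR2L8 to 0.0707, NANOS1 to -0.21 and RNU4ATAC to 0.39. Without abemaciclib replicates 2 and 3 AZGP1 turned to -0.12, E2F1 to 0.16, KDM5A to 0.0871 and MUCL1 to -0.097. Depth limited the low genes: 33 of the 139 increases averaged under 10 CPM, and genes such as CDC45 rested on a few counts per library.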
